A study of Mus musculus with 10 samples.

Results

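The genes described here are 10 secreted members of the BMP and activin branch of the TGF-beta superfamily, chosen by name as the ligand genes Bmp2, Bmp4, Bmp6, Bmp7, Gdf10, Inhba and Inhbb and the antagonist genes Grem1, Fst and Fstl1. All 10 were found among 12394 genes measured on 10 single-colour Affymetrix mouse arrays, and where several of the 14 probe sets that name 1 of them alone read the same gene, the brightest on average was used. Values are log2 values after RMA, which equalises the distributions of the arrays, so 1 unit is a doubling of signal. The arrays carried RNA of cells sorted from mammary glands of FVB/N mice. CAF (3 arrays, the usual abbreviation of cancer-associated fibroblasts), CSC (2 arrays, cancer stem cells) and a population titled TEC (2 arrays), which another label field calls TEFs, came from mammary tumours of mice with the genotype WAPCre-DNbcatn;HGF. The genotype holds a Cre recombinase named for the promoter of the milk protein gene Wap, which is active in secretory mammary epithelium, and the study calls the tumours Wnt-Met tumours. Fibroblasts of control glands (COF, 3 arrays) came from mice of genotype WT. RNA was extracted directly after sorting. Ages, gates and the number of mice per array are not given in the sources used here, so each p-value measures the spread between these samples, which may be technical.

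BMPs and activins are dimeric ligands that bring together type I and type II serine/threonine kinase receptors. BMP receptors mainly phosphorylate the SMAD1, SMAD5 and SMAD9 proteins, and activin receptors SMAD2 and SMAD3, after which the SMAD proteins enter the nucleus with SMAD4. Secreted antagonists bind the ligands outside the cell: gremlin, the product of Grem1, binds mainly BMP2 and BMP4, and follistatin, the product of Fst, binds activins with high affinity. In the mammary gland BMP4 from the mesenchyme takes part in bud formation, and Inhba and Inhbb encode the chains of activin A and activin B.

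The labels were checked against cell type markers. The 13 fibroblast markers had a median log2 value of 13.01 to 13.21 in CAF and of 13.12 to 13.23 in COF. In CSC they had medians of 8.24 and 7.74. In TEC they had 8.36 on replicate 1 and 11.17 on replicate 2, so TEC replicate 2 stood apart, and results that rest on it are given with and without it. The 14 epithelial markers had medians of 12.17 and 11.94 in CSC and 9.30 and 9.85 in TEC. The 13 leukocyte markers had medians of 11.36 and 10.96 in CSC and 13.38 and 13.00 in TEC. On both TEC arrays leukocyte markers thus lay above epithelial ones. On both CSC arrays the leukocyte median lay below the epithelial one. All 13 leukocyte markers were nevertheless higher in CSC than in CAF and than in COF (limma, adjusted p under 0.05). TEC and CSC are therefore used here only as labels, and any part of leukocytes in their values was not tested. The lower quartile of all probe sets lay between 5.05 and 5.26 and the median between 6.89 and 7.02 on the 10 arrays. On such RNA of sorted cells, fewer cells of a type and less RNA per cell cannot be told apart.

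Tumour fibroblasts were first set against fibroblasts of the control gland. Both activin chain genes, Inhba and Inhbb, and the BMP antagonist gene Grem1 were higher in CAF, whereas the BMP ligand genes Bmp2, Bmp4 and Bmp7 were lower. Bmp6, Gdf10, Fst and Fstl1 did not pass the test. Counted over the 10 genes, 3 were higher, against 18.1% of all genes, and 3 were lower, against 16.7% of all genes (limma, adjusted p under 0.05). In all 6 of 10 passed, against 34.8% of all genes. The arrays of CAF and COF did not overlap for 8 of the 10 genes, against 56.6% of all genes. The median difference of the 10 genes was -0.05 and that of all genes 0.02, but the median size of the difference, whatever its direction, was 1.21 for the 10 genes and 0.24 for all genes.

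**Figure D1:**
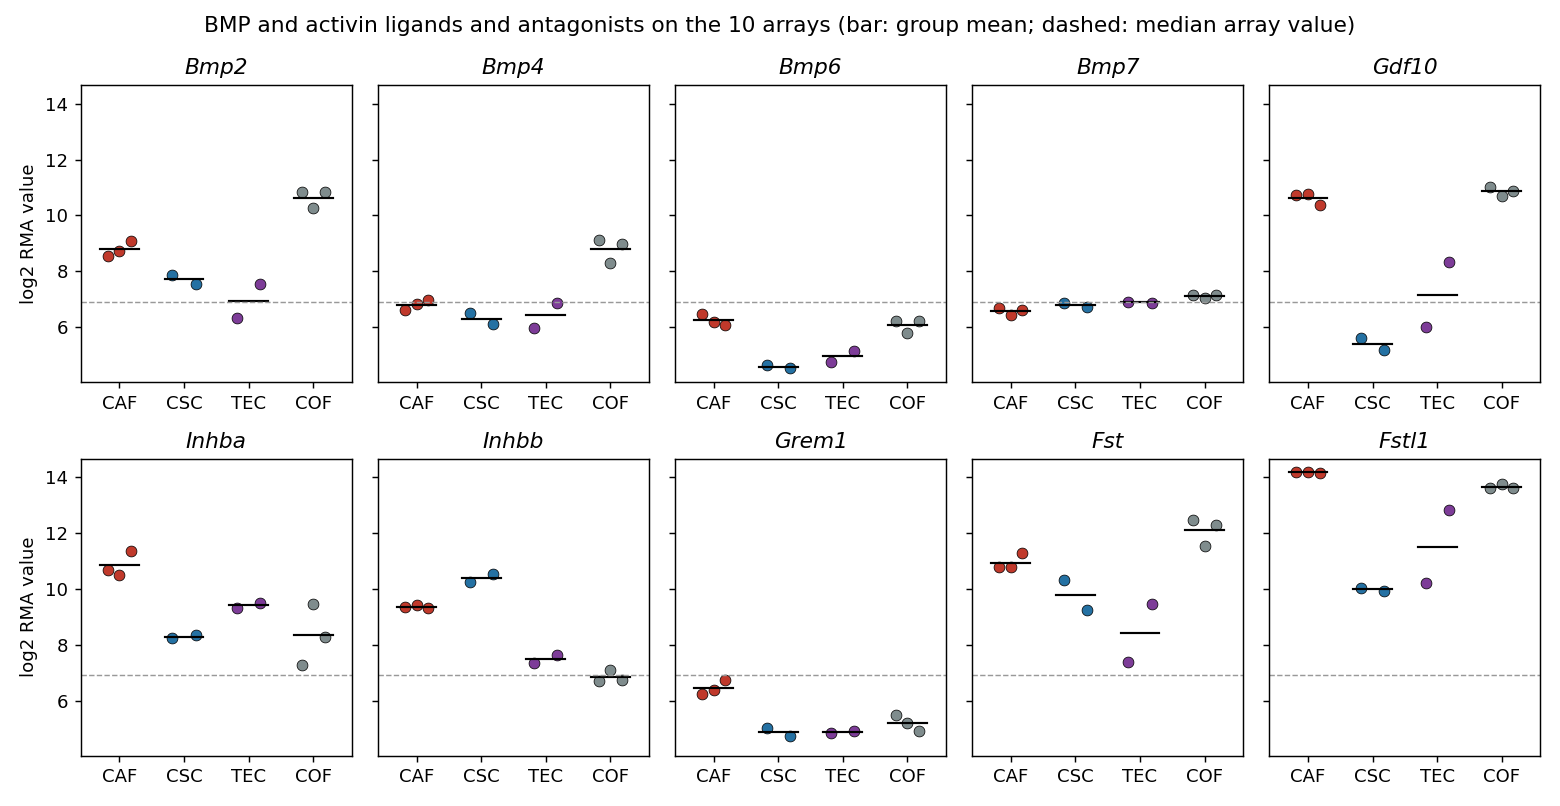
Log2 RMA values of the 10 genes (1 panel each) on every array of CAF, CSC, TEC and COF; points are arrays, bars are group means and the dashed line is the median of the arrays' medians. Inhba and Grem1 are highest in CAF, Inhbb is highest in CSC, Bmp2, Bmp4 and Fst are highest in COF, and for Gdf10 and Fstl1 the 2 TEC arrays stand far apart.

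Inhba encodes the beta A chain, which forms activin A as a homodimer. Its log2 values were 10.68, 10.52 and 11.36 in CAF, 8.25 and 8.35 in CSC, 9.34 and 9.50 in TEC, and 7.30, 9.46 and 8.30 in COF. Every CAF array lay above every other array, and the COF arrays were spread over more than the distance between CSC and TEC. The difference of CAF from COF was 2.50 ± 0.46 on the log2 scale (SE, n = 3 and 3, adjusted p = 0.00295), or 5.65-fold. It was 3.05 without COF replicate 2, the COF array with the highest value, and 1.97 without COF replicate 1, the one with the lowest. CAF also exceeded CSC, by 2.55 ± 0.51 (n = 3 and 2, adjusted p = 0.00185), and TEC, by 1.43 ± 0.51 (adjusted p = 0.0326). The difference from TEC lost its call without CAF replicate 1 (adjusted p = 0.0556), CAF replicate 3 (0.0973), TEC replicate 1 (0.112) or TEC replicate 2 (0.0772), and with the replicate number as a block (0.0594). In the order of means CAF stood first, followed by TEC, COF and CSC. The differences among those 3 did not pass (TEC minus COF 1.07, adjusted p = 0.0900; CSC minus TEC -1.12, adjusted p = 0.131; CSC minus COF -0.05, adjusted p = 0.934). TEC minus COF was 1.62 without COF replicate 2 (adjusted p = 0.00397) and 0.54 without COF replicate 1 (adjusted p = 0.243). Inhba was lower in CSC than in TEC with an adjusted p of 0.0154 in a fit of those 4 arrays alone, and of 0.0423 and 0.0307 without COF replicate 1 or 2.

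Inhbb encodes the beta B chain of activin B. Its log2 values were 9.38, 9.43 and 9.31 in CAF, 10.25 and 10.53 in CSC, 7.36 and 7.64 in TEC, and 6.71, 7.11 and 6.77 in COF. The 4 groups did not overlap, with CSC first, then CAF, TEC and COF, and each step of that order passed the test. CSC exceeded TEC by 2.89 ± 0.16 (SE, n = 2 and 2, adjusted p = 6.23e-06), or 7.41-fold. CAF exceeded COF by 2.51 ± 0.13 (n = 3 and 3, adjusted p = 1.11e-05), or 5.70-fold. CAF lay below CSC by a difference of -1.02 ± 0.15 (n = 3 and 2, adjusted p = 0.000268), and TEC lay above COF by 0.64 ± 0.15 (adjusted p = 0.00395). CSC and COF differed by 3.53 ± 0.15, or 11.5-fold, with an adjusted p of 1.15e-07. As Inhbb was highest in CSC, the epithelial marker Epcam is given beside it. Epcam had log2 values of 7.74, 8.14 and 8.23 in CAF, 13.48 and 13.41 in CSC, 10.70 and 11.39 in TEC, and 5.92, 7.22 and 6.49 in COF. The log2 difference of CAF from CSC was -5.41 for Epcam and, as the median of 14 epithelial markers, -4.92. Any part of epithelial cells in the Inhbb values was not tested.

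The other, dimmer probe set for Inhbb gave a different picture. It stood at 7.18, 7.01 and 7.02 in CAF, 7.27 and 7.17 in CSC, 6.87 and 7.09 in TEC, and 7.0, 6.80 and 6.74 in COF. In the fit of all probe sets with 1 gene, 3 of its contrasts were read and did not pass. They were CAF minus COF (0.22, adjusted p = 0.141), CSC minus TEC (0.24, adjusted p = 0.167) and CAF minus CSC (-0.15, adjusted p = 0.296). Its differences for the remaining pairs of groups were not read. With the mean of both probe sets Inhbb differed by 1.37 between CAF and COF, by 1.56 between CSC and TEC and by -0.58 between CAF and CSC, and all 3 still passed (adjusted p of at most 0.000913). That mean contains the brighter probe set, so it cannot tell whether the dimmer one bears out the calls. Which stretch of the transcript either probe set reads is not given in the files. In these 3 contrasts the Inhbb differences and their calls therefore rest on 1 of its 2 probe sets.

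Grem1 encodes gremlin, a cystine-knot protein that binds BMPs. Its log2 values were 6.26, 6.40 and 6.76 in CAF, 5.02 and 4.75 in CSC, 4.85 and 4.93 in TEC, and 5.49, 5.20 and 4.94 in COF. Only the CAF arrays rose clear of the others, which overlapped or lay close together and were near or under the lower quartile of all probe sets. CAF exceeded COF by 1.27 ± 0.17 (SE, n = 3 and 3, adjusted p = 0.000607), CSC by 1.59 ± 0.19 (adjusted p = 7.83e-05) and TEC by 1.59 ± 0.19 (adjusted p = 8.34e-05). The other 3 groups did not differ by the test (differences of -0.32 for CSC minus COF, -0.32 for TEC minus COF and -0.0021 for CSC minus TEC, adjusted p of at least 0.156). Because CAF itself averaged 6.48, below the median of each array, the size of the increase depends on the background.

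Bmp4, a ligand made by mesenchyme in many tissues, had log2 values of 6.62, 6.85 and 6.97 in CAF, 6.50 and 6.11 in CSC, 5.98 and 6.89 in TEC, and 9.11, 8.29 and 8.97 in COF. All 3 COF arrays lay above the other 7, and the CAF arrays overlapped with TEC. CAF and COF differed by -1.98 ± 0.27 (SE, n = 3 and 3, adjusted p = 0.000695), a 3.93-fold lower signal in CAF. CSC and TEC were lower than COF by similar amounts, with differences of -2.49 ± 0.30 (adjusted p = 7.92e-05) and -2.36 ± 0.30 (adjusted p = 0.000117), the difference of TEC being -2.81 without TEC replicate 2. CAF did not pass against CSC (0.51, 95% interval -0.18 to 1.2, adjusted p = 0.163) or TEC (0.38, -0.31 to 1.07, adjusted p = 0.291). A fit of CAF and CSC alone gave an adjusted p of 0.0281, and CAF minus TEC was 0.83 without TEC replicate 2 (adjusted p = 0.0383) and -0.07 without TEC replicate 1 (adjusted p = 0.847).

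Bmp2, the closest relative of Bmp4 and a ligand of the same receptors, had log2 values of 8.56, 8.71 and 9.09 in CAF, 7.88 and 7.56 in CSC, 6.35 and 7.56 in TEC, and 10.83, 10.26 and 10.83 in COF. COF was highest and CAF second, and neither overlapped with another group. CAF and COF differed by -1.85 ± 0.30 (SE, n = 3 and 3, adjusted p = 0.00159), or 3.61-fold. CAF exceeded CSC by 1.07 ± 0.34 (adjusted p = 0.0189) and TEC by 1.83 ± 0.34 (adjusted p = 0.00105), or by 2.44 without TEC replicate 2. The call against CSC was lost without CAF replicate 3 (adjusted p = 0.0600) or CSC replicate 2 (0.113) and with the replicate block (0.0559). CSC and TEC did not pass (0.77, -0.07 to 1.60, adjusted p = 0.118), and the value depended on the TEC array, at 1.37 without TEC replicate 2 (adjusted p = 0.00450) and 0.16 without TEC replicate 1 (adjusted p = 0.706). Bmp2 and Bmp4 were thus both lower in CAF than in COF, and Bmp2 in CAF was above both CSC and TEC.

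Bmp7, which signals through the BMP receptors as well, had the smallest span of group means of the 10 genes on its brightest probe set, 0.53 over the 4 groups. It ranged from 6.43 to 6.69 in CAF, 6.73 to 6.88 in CSC, 6.87 to 6.91 in TEC and 7.04 to 7.17 in COF. CAF was lowest and COF highest, with a difference of -0.53 ± 0.10 (SE, n = 3 and 3, adjusted p = 0.00260). Both other calls were small and depended on single arrays: CAF minus TEC was -0.31 (adjusted p = 0.0279) and CSC minus COF was -0.31 (adjusted p = 0.0253). Leaving out single arrays gave an adjusted p of up to 0.0979 for CAF minus TEC, without CAF replicate 2, and of up to 0.147 for CSC minus COF, without CSC replicate 2. The first call was lost as well without TEC replicate 1 (0.0903) or TEC replicate 2 (0.0578), and the second without COF replicate 1 (0.0629) or COF replicate 3 (0.0766). Its other probe sets gave larger decreases in CAF against COF, of -1.62 (adjusted p = 0.00233) and -0.89 (adjusted p = 0.000245), and the mean of all 3 probe sets differed by -1.01. With that mean CAF also passed against CSC (-0.42, adjusted p = 0.0313) and TEC against COF (-0.75, adjusted p = 0.00161), while CAF minus TEC did not (-0.26, adjusted p = 0.144). All 3 Bmp7 probe sets thus had the same direction between CAF and COF.

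**Figure D2:**
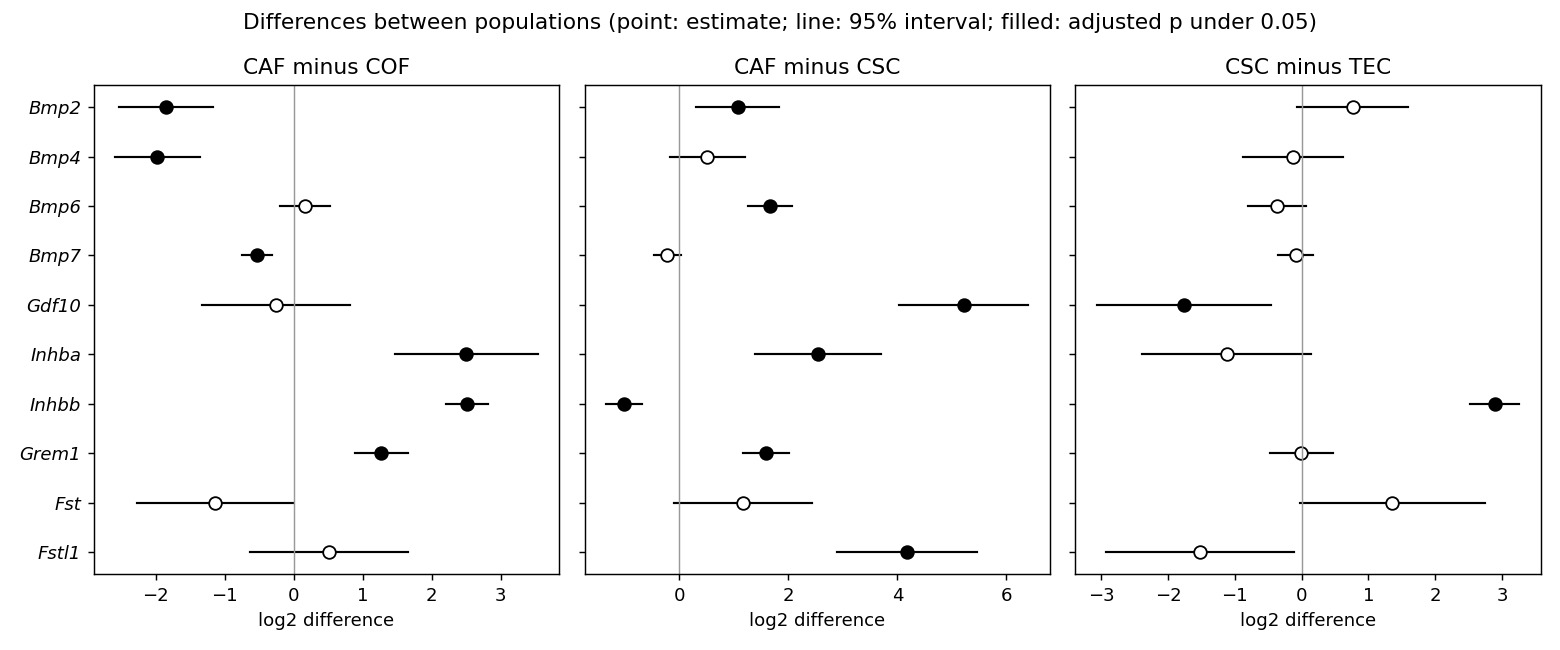
Log2 differences of the 10 genes for CAF minus COF, CAF minus CSC and CSC minus TEC, with 95% intervals; filled points passed at an adjusted p under 0.05. Inhba, Inhbb and Grem1 lie above 0 and Bmp2, Bmp4 and Bmp7 below 0 between CAF and COF, and Gdf10 (5.21) and Fstl1 (4.18) have the widest distance from 0 between CAF and CSC.

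Follistatin, encoded by Fst, had log2 values of 10.80, 10.78 and 11.29 in CAF, 10.32 and 9.26 in CSC, 7.41 and 9.47 in TEC, and 12.46, 11.56 and 12.29 in COF. Every COF array lay above every CAF array, and every CAF array above CSC and TEC. The difference of CAF from COF was -1.15 ± 0.50 (SE, n = 3 and 3, 95% interval -2.27 to -0.02) and did not pass (adjusted p = 0.111). It passed in a fit of the 6 fibroblast arrays alone (adjusted p = 0.00753) and without either TEC array (0.0185 in both cases). The 2 TEC arrays were 2.06 apart, and the pooled spread of the 10 arrays includes them. CSC and TEC were lower than COF, by differences of -2.31 ± 0.56 (adjusted p = 0.00483) and -3.66 ± 0.56 (adjusted p = 0.000334, and -4.69 without TEC replicate 2). Without CSC replicate 2 the first of these had an adjusted p of 0.0535. CAF exceeded TEC by 2.52 ± 0.56 (adjusted p = 0.00320), by 1.48 without TEC replicate 1 and by 3.55 without TEC replicate 2, but did not pass against CSC (1.16, adjusted p = 0.0924, and 0.0190 in a fit of CAF and CSC alone). CSC minus TEC was 1.35 (adjusted p = 0.0991), but it was 2.38 without TEC replicate 2 (adjusted p = 0.00311) and 0.32 without TEC replicate 1 (adjusted p = 0.627).

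Fstl1 encodes a secreted glycoprotein of mesenchymal cells that carries a follistatin-like domain. It had log2 values of 14.19, 14.18 and 14.16 in CAF, 10.05 and 9.95 in CSC, 10.22 and 12.83 in TEC, and 13.61, 13.76 and 13.63 in COF. All fibroblast arrays lay above all tumour population arrays, and CAF lay above COF without overlap. The difference of CAF from COF, 0.51 ± 0.51 (SE, n = 3 and 3, adjusted p = 0.508), did not pass with the spread of all 10 arrays. It passed in a fit of the 6 fibroblast arrays (adjusted p = 0.000967) and without TEC replicate 1 or 2 (0.000984 in both cases). The second Fstl1 probe set gave 0.62 for the same difference. CAF exceeded CSC by 4.18 ± 0.57 (n = 3 and 2, adjusted p = 0.000175), or 18.1-fold, and TEC by 2.65 ± 0.57 (adjusted p = 0.00262), a difference of 1.35 without TEC replicate 1 and 3.95 without TEC replicate 2. CSC minus TEC was -1.53 (adjusted p = 0.0716), but it was -2.83 without TEC replicate 1 (adjusted p = 2.94e-06) and -0.22 without TEC replicate 2 (adjusted p = 0.140). TEC and COF differed by -2.14 ± 0.57 (adjusted p = 0.00801), and by -3.44 without TEC replicate 2 and -0.84 without TEC replicate 1.

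Gdf10, also called Bmp3b, is a divergent member of the BMP family. It had log2 values of 10.73, 10.76 and 10.37 in CAF, 5.61 and 5.20 in CSC, 6.0 and 8.33 in TEC, and 11.04, 10.71 and 10.87 in COF. Both fibroblast groups were high and overlapped, and both CSC arrays were low. CAF exceeded CSC by 5.21 ± 0.53 (SE, n = 3 and 2, adjusted p = 2.89e-05), or 37.1-fold, and TEC by 3.45 ± 0.53 (adjusted p = 0.000362), or by 2.29 without TEC replicate 1 and 4.62 without TEC replicate 2. CAF and COF differed by -0.26 ± 0.47 (95% interval -1.32 to 0.81, adjusted p = 0.741). CSC was lower than TEC by a difference of -1.76 ± 0.58 (n = 2 and 2, adjusted p = 0.0326), but without TEC replicate 2 it was -0.59 (adjusted p = 0.0566) and without TEC replicate 1 it was -2.93 (adjusted p = 2.53e-05). The call was also lost without CAF replicate 1 (adjusted p just above 0.05), CSC replicate 1 (0.0659) or CSC replicate 2 (0.146), with the replicate block (0.0551) and in a fit of CSC and TEC alone (0.180). On TEC replicate 2 the fibroblast markers Pdgfra and Dcn stood at 9.80 and 13.39, against 7.02 and 11.06 on TEC replicate 1. Over all 13 fibroblast markers the log2 of the summed level was 14.59 and 14.41 in CSC, against 14.97 on TEC replicate 1 and 16.49 on TEC replicate 2. Their part in the values of Gdf10, Fst and Fstl1 on that array was not tested.

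Bmp6, a ligand known for its part in iron homeostasis and bone, was dim in every group. It ranged from 6.09 to 6.46 in CAF, 4.53 to 4.67 in CSC, 4.77 to 5.16 in TEC and 5.80 to 6.24 in COF. The fibroblast groups overlapped (CAF minus COF 0.16, 95% interval -0.20 to 0.52, adjusted p = 0.497) and lay above both tumour populations. CAF exceeded CSC by 1.66 ± 0.18 (SE, n = 3 and 2, adjusted p = 4.19e-05) and TEC by 1.29 ± 0.18 (adjusted p = 0.000200), from values there near or under the lower quartile.

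Cell type markers were also compared between CAF and COF, where 18.1% of all genes were higher and 16.7% were lower. Of the 13 fibroblast markers 0 were higher and 0 were lower. Leukocyte markers were higher in CAF for 11 of 13 genes, with the log2 of their summed level at 10.80 to 11.83 in CAF and 9.28 to 9.84 in COF. Epithelial markers were higher for 9 of 14 and lower for 1, at 11.01 to 11.51 in CAF and 10.13 to 10.83 in COF. Pericyte and smooth muscle markers were higher for 2 of 8 and lower for 1, at 10.87 to 11.08 in CAF and 10.10 to 10.24 in COF. Summed levels follow the brightest markers, and the medians of this list overlapped, at 7.07 to 7.17 in CAF and 7.07 to 7.25 in COF. Adipocyte markers were lower for 4 of 6, at 13.00 to 13.43 in CAF and 14.26 to 14.33 in COF, in the same direction as Bmp2 and Bmp4. Endothelial markers were lower for 1 of 9, at 10.05 to 10.16 in CAF and 10.41 to 10.95 in COF, with Pecam1 under 5.0 in CAF. Their medians did not show this decrease, at 6.08 to 6.31 in CAF and 5.25 to 6.30 in COF. Mast cell markers were higher for 4 of 7, at 9.13 to 9.92 in CAF and 8.01 to 8.12 in COF. Any part of these cell types in the results was not tested.

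Start regions of the genes that passed between CAF and COF are shown because these members moved together or in opposite directions. The table of RefSeq start regions for GRCm38.p6 held 7 of the 10 genes, Bmp2, Bmp7 and Fst being the others. Each sequence runs 5′ to 3′ on the gene's strand over 300 bases, 250 before and 50 after a start site. Capitals mark matches, on either strand, to 6 motifs that were searched: TATAAA, the GC box GGGCGG, the AP-1 site TGANTCA, the GC-rich SMAD element GGCGCC, the GLI site GACCACCCA and the TCF core CTTTGAT. The first 3 sequences belong to genes higher in CAF and the fourth to one lower in CAF. Inhba lies at chr13:16011601-16011900 on the plus strand, at a start site within its annotated span of 16004256 to 16031609, Inhbb at chr1:119422199-119422498, Grem1 at chr2:113758599-113758898 and Bmp4 at chr14:46390620-46390919, these 3 on the minus strand.
Inhba: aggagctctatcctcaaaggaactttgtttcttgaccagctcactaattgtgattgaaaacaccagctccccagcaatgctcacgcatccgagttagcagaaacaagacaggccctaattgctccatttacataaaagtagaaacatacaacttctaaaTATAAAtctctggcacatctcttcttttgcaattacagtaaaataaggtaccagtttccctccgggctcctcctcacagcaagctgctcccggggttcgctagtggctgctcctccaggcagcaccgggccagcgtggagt
Inhbb: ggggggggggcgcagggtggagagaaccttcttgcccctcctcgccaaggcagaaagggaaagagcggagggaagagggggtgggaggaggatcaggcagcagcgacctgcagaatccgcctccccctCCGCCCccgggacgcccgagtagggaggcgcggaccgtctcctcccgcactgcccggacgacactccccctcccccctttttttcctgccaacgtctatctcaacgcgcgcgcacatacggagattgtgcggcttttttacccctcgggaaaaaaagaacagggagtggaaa
Grem1: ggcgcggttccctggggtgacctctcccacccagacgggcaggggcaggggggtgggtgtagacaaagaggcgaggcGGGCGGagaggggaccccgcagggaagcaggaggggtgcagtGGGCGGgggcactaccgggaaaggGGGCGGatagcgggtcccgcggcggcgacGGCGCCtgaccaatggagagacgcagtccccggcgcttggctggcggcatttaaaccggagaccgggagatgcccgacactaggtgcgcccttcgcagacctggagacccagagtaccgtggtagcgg
Bmp4: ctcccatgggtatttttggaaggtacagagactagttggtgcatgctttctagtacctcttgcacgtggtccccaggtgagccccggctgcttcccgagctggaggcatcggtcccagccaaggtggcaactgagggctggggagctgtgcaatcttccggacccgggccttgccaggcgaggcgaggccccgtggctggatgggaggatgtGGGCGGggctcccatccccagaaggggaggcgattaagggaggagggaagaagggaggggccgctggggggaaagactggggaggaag

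The 3 start regions of genes higher in CAF did not look alike. That of Inhba had 47.7% G and C, below the median of 52.7% over 32851 start regions of the same length, a TATAAA match 91 bases before the start, which 13.6% of all start regions hold, and no GC box. That of Inhbb had 64.3% G and C and 1 GC box. That of Grem1 had 70.7% G and C, 3 GC boxes and 1 GGCGCC, which 11.9% of all start regions hold. That of Bmp4 had 64.0% G and C and 1 GC box, a motif found in 35.7% of all start regions. No match to the AP-1, GLI or TCF letters was found in any of the 7 windows, where 7.81%, 0.253% and 3.73% of all start regions hold one. These are matches of letters and not measured sites.

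The comparison of CAF with CSC concerns populations sorted from the tumours, and the CSC arrays carried leukocyte as well as epithelial markers. Any part of leukocytes in the differences below was not tested. Of the 10 genes, 6 were higher in CAF, against 33.4% of all genes, and 1 was lower, against 33.1%. The 7 that passed compare with 66.5% of all genes. Higher in CAF were Gdf10, Fstl1, Inhba, Bmp6, Grem1 and Bmp2, and the one higher in CSC was Inhbb. The arrays of CAF and CSC did not overlap for 10 of 10 genes, against 82% of all genes. Their median difference was 1.38, against 0.01 for all genes. This comparison shares the CAF arrays with that of CAF and COF, so the values are set side by side only: Inhba differed by 2.55 from CSC and 2.50 from COF, Grem1 by 1.59 and 1.27, Bmp2 by 1.07 and -1.85, and Inhbb by -1.02 and 2.51.

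Between CSC and TEC, 2 of the 10 genes passed, against 46.7% of all genes. Inhbb was the 1 higher in CSC, against 26.6% of all genes, and Gdf10 the 1 lower, against 20.1%. The arrays of CSC and TEC did not overlap for 6 of 10 genes, against 68.7% of all genes. For CAF minus TEC 9 of 10 passed, against 67.5% of all genes, with 8 higher (38.6%) and 1 lower (28.9%), and 9 did not overlap (81.1%). For CSC minus COF 8 passed, against 69.5%, with 1 higher (33.7%) and 7 lower (35.8%), and 8 did not overlap (80.7%). For TEC minus COF 7 passed, against 68.2%, with 1 higher (29.8%) and 6 lower (38.5%), and 9 did not overlap (78%). The shares in parentheses are those of all genes. Inhbb was the gene higher than COF in both tumour populations. Apart from Inhbb, every member that passed against COF in CSC or TEC was lower there.

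**Figure D3:**
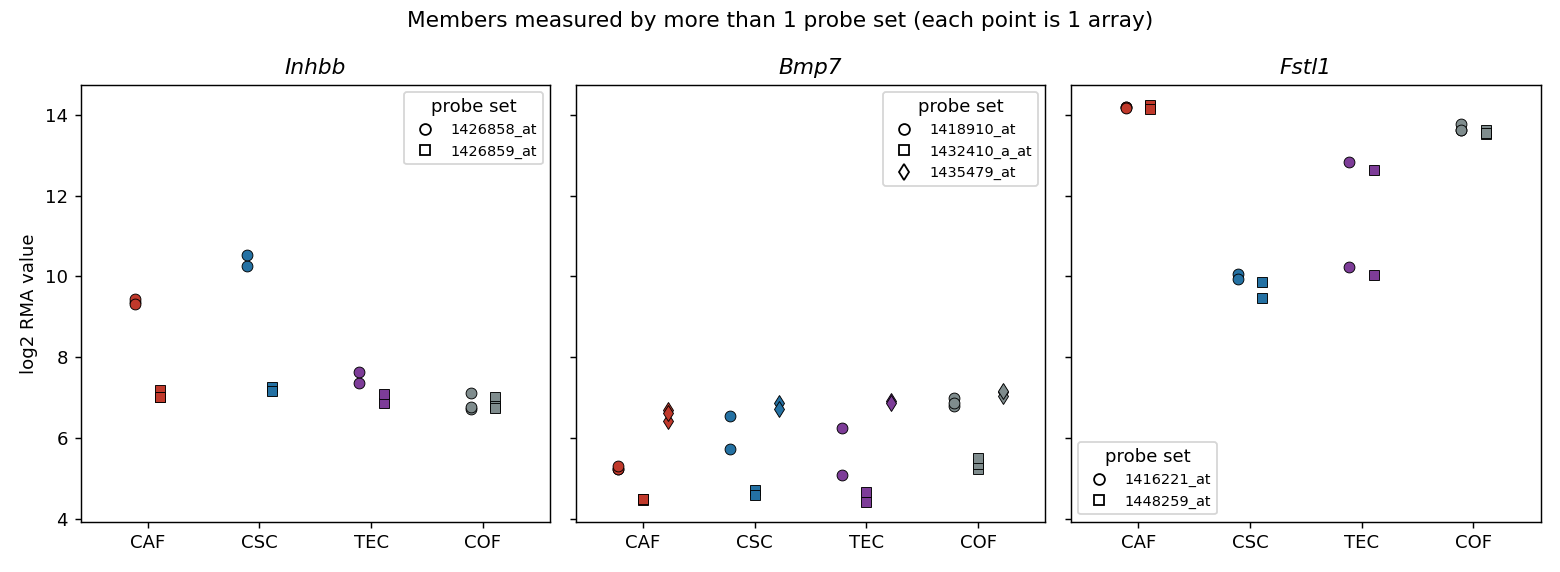
Log2 RMA values of every probe set of Inhbb, Bmp7 and Fstl1, the members with more than 1, on each array of CAF, CSC, TEC and COF; marker shapes are probe sets. One Inhbb probe set spans 6.71 to 10.53 and the other 6.74 to 7.27, whereas the Fstl1 probe sets run together.

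The rest of the pathway was described from lists of textbook genes, chosen with earlier results of these data known. Their counts are given beside 18.1% of all genes higher and 16.7% lower between CAF and COF, and 33.4% and 33.1% between CAF and CSC. Among the other ligands, 0 of 15 measured genes were higher and 3 were lower in CAF than in COF: Bmp5 (-1.15 ± 0.17), Bmp8a (-1.02 ± 0.15) and Gdf9 (-0.54 ± 0.13), given as log2 difference ± SE with adjusted p of at most 0.00919. Bmp5 had values of 5.01, 5.34 and 5.20 in CAF and 6.58, 5.92 and 6.49 in COF. Among the other antagonists and modulators, 4 of 17 were higher and 3 were lower. Fbn2, a fibrillin of microfibrils that can hold BMPs in the matrix, was higher (3.30 ± 0.71, adjusted p = 0.00637), at 10.95, 11.12 and 10.90 in CAF and 6.83, 8.65 and 7.59 in COF. Tll1, a protease related to BMP1 that cleaves the antagonist chordin, was higher too (1.90 ± 0.33, adjusted p = 0.00242). Wfikkn1, a binding protein of growth factors such as myostatin, was lower (-0.74 ± 0.11, adjusted p = 0.00115), and so was the serine protease gene Htra1 (-1.72 ± 0.33, adjusted p = 0.00344). The antagonist noggin, Nog, had values of 4.98, 4.87 and 5.13 in CAF and 5.01, 4.76 and 4.77 in COF and did not pass (0.15 ± 0.16, adjusted p = 0.529).

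Of 14 measured receptors and co-receptors 0 were higher in CAF than in COF, against 18.1% of all genes, and 1 was lower, against 16.7%, the activin type II receptor gene Acvr2a (-0.81 ± 0.13, adjusted p = 0.00171). Acvr2a had values of 8.59, 8.49 and 8.39 in CAF and 9.48, 9.03 and 9.40 in COF. The BMP receptor genes Bmpr1a (0.35 ± 0.17, adjusted p = 0.156) and Bmpr2 (0.18 ± 0.10, adjusted p = 0.237) and the pseudoreceptor gene Bambi (-0.15 ± 0.26, adjusted p = 0.731) did not pass. Against CSC, 7 of 14 were higher in CAF, against 33.4% of all genes, and 2 were lower, against 33.1%. Among those higher were Bmpr2 (1.47 ± 0.12, adjusted p = 6.72e-06), Acvr2a (1.44 ± 0.15, adjusted p = 3.38e-05) and Bmpr1a (0.82 ± 0.19, adjusted p = 0.00443). The receptors higher in CSC were Acvr1b (-1.08 ± 0.25, adjusted p = 0.00381) and Acvr2b (-1.20 ± 0.17, adjusted p = 0.000247). Both are activin receptor genes, as is Acvr2a, which was higher in CAF. Of 12 SMAD proteins and intracellular regulators, 0 were higher and 3 were lower in CAF than in COF, namely Smad2 (-0.80 ± 0.09), Smad3 (-0.42 ± 0.11) and Smad7 (-0.53 ± 0.15), with adjusted p of at most 0.0269.

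Of 17 genes known to respond to BMP, 2 were higher and 7 were lower in CAF than in COF, against 18.1% and 16.7% of all genes, with a median difference of -0.40 (all genes 0.02). The 2 higher ones were Gata3 (0.85 ± 0.27), a factor of luminal epithelium and lymphocytes, and Grem1, which is itself 1 of the 10 genes. Gata3 was dim, at 4.90, 5.17 and 5.90 in CAF and 4.33 to 4.61 in COF. Of these arrays only CAF replicate 3 held it above the lower quartile of all probe sets. The ID proteins are inhibitors of helix-loop-helix factors and classical BMP targets. Id1 had values of 8.43, 8.25 and 8.36 in CAF and 9.57, 9.61 and 9.52 in COF, a difference of -1.22 ± 0.19 (adjusted p = 0.00148). Id2 stood at 10.60, 10.63 and 11.24 in CAF and 12.01, 11.81 and 12.11 in COF (-1.15 ± 0.18, adjusted p = 0.00137). Id4 stood at 7.90, 7.75 and 7.41 in CAF and 9.97, 9.73 and 9.92 in COF (-2.19 ± 0.36, adjusted p = 0.00178). For these 3 genes the groups did not overlap. Id3 did not pass (-0.63 ± 0.29, adjusted p = 0.138). Hey1 (-0.84 ± 0.13, adjusted p = 0.00121), a target of Notch signalling as well, was also lower, and so were the homeobox genes Msx1 (-0.94) and Dlx2 (-0.40). Dlx2 lay under the lower quartile of all probe sets, at 3.10 to 3.17 in CAF and 3.48 to 3.62 in COF. Smad7, the remaining lower gene, was also counted among the intracellular regulators. Against CSC the ID genes split, with Id1 (-1.72 ± 0.22) and Id2 (-1.63 ± 0.20) lower in CAF and Id3 (2.19 ± 0.33) higher (adjusted p of at most 0.000323). In this list 6 of 17 genes were higher in CAF than in CSC and 6 were lower, shares near the 33.4% and 33.1% of all genes.

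**Figure D4:**
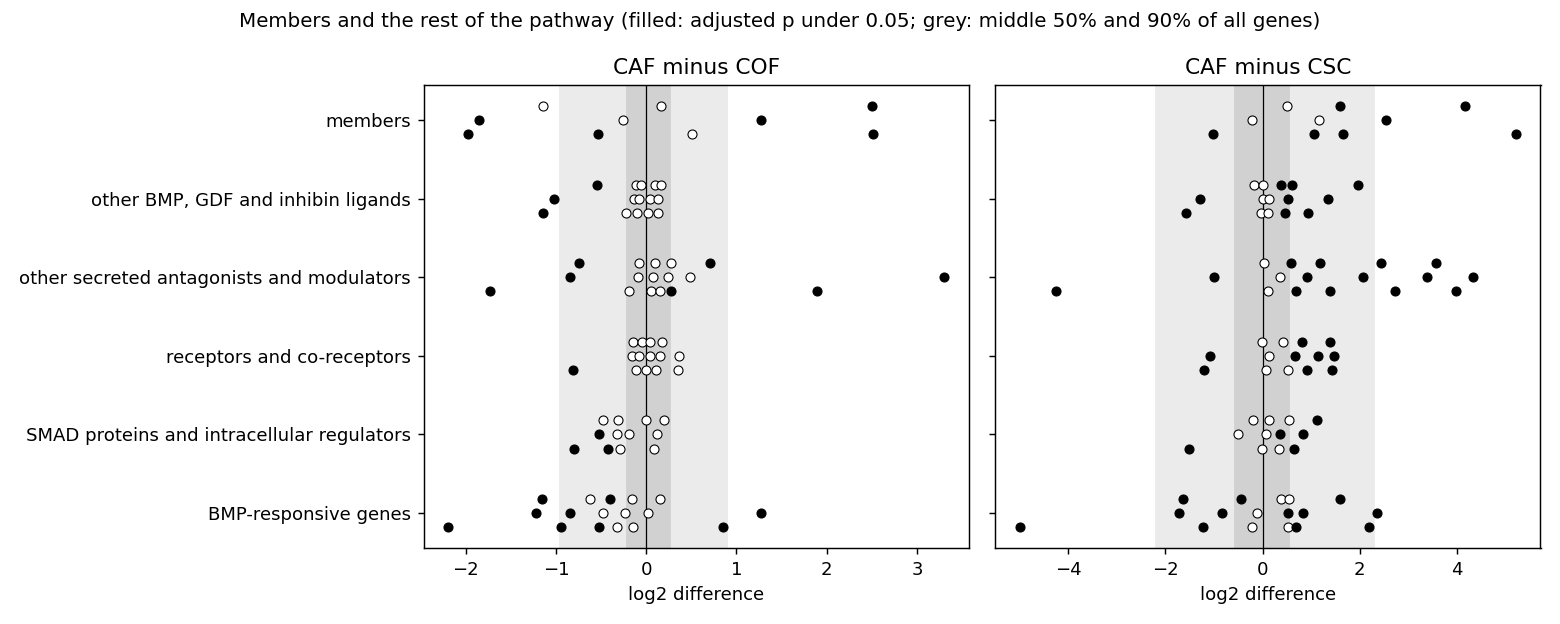
Log2 differences of the 10 genes and of 5 lists of other pathway genes for CAF minus COF and CAF minus CSC; each point is a gene, filled where the adjusted p was under 0.05, and grey bands hold the middle 50% and 90% of all genes. Of the receptors, Acvr2a alone (-0.81) passed between CAF and COF, and 7 of 17 BMP-responsive genes are lower in CAF.

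Antagonist genes differed in both directions between CAF and CSC. Of the 17 other antagonists and modulators, 12 were higher in CAF than in CSC and 2 were lower. Those lower were Chrdl2, a chordin-like protein, with values of 4.82, 5.14 and 5.2 in CAF and 9.30 and 9.30 in CSC (-4.25 ± 0.17, adjusted p = 1.25e-07), and Sostdc1 (-1.01 ± 0.09). Among those higher in CAF were Nbl1, a gremlin-related BMP antagonist (4.33 ± 0.34, adjusted p = 6.46e-06), and the chordin-like gene Chrdl1 (2.73 ± 0.22, adjusted p = 7.11e-06). Among the other ligands 7 of 15 were higher in CAF and 2 lower, with Bmp5 higher (1.96 ± 0.19, adjusted p = 2.06e-05) and Gdf5 (-1.28 ± 0.11) and Gdf3 (-1.57 ± 0.16) lower (adjusted p of at most 3.19e-05). Means in CAF and CSC were 5.19 and 3.23 for Bmp5, 4.47 and 5.75 for Gdf5, and 4.97 and 6.54 for Gdf3. For Sostdc1 they were 4.54 and 5.55. All lay below the median of each array, so the sizes of these differences depend on the background.

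The genes with the most similar pattern over the 10 arrays were found by the root mean square difference of log2 values after each gene was centred on its own mean. This was done for the 7 members whose group means spanned at least 2. For Gdf10 they were Gstm2 (0.16), Fap (0.17), a surface protease of fibroblasts, and Lum (0.18), a matrix proteoglycan. For Fstl1 they were Rcn3 (0.15), Cd248 (0.17), a surface protein of stromal cells, and Sparc (0.19), a matrix protein. Values in parentheses are that difference in log2 units, and Pearson's r of these 6 genes was 0.996 to 0.999 over the same 10 arrays, which share 4 groups. For Inhba they were Cdkn2b (0.47), a cell cycle inhibitor, Gpc1 (0.53) and Acta2 (0.54), smooth muscle actin. For Inhbb they were Cp (0.36), ceruloplasmin, Fblim1 (0.38) and Ank3 (0.47). For Bmp4 they were Ltbp4 (0.29), a latent TGF-beta binding protein, Ube2o (0.32) and Zfp142 (0.32). For Bmp2 they were Zxdc (0.27), Gbp6 (0.30) and Vldlr (0.33), and for Fst they were Mbd1 (0.41), Hspb8 (0.42) and Bmp2 (0.42). The patterns of Gdf10 and Fstl1 were thus matched more closely by other genes than those of Inhba, Inhbb and Fst.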

How the data were processed

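Sorted-cell RNA, 100 ng a sample by the label protocol, was read on 10 Affymetrix mouse arrays. The deposited values are log2 values of 22690 probe sets made by the authors with RMA, per the submitters' processing notes, and its version is not given. The number of arrays limits the precision. Groups and replicate numbers came from the sample titles. Of the probe sets, 20393 had 1 gene symbol, 691 several and 1606 none in the array annotation. The first kind gave 12394 genes, each read from its brightest probe set, and 12370 matched a RefSeq gene identifier.

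Differences were fitted over all genes and 10 arrays by limma (version 3.58.1, functions lmFit and eBayes, R version 4.3.3) in a model holding group alone. Tests were two-sided, with Benjamini-Hochberg adjustment over all genes of a contrast, and errors are moderated standard errors. The procedure was tested on simulated data. The 10 genes, the pathway and marker lists and the rule for naming genes were chosen with earlier results of these data known. The rule named all 10 genes, up to 4 genes per pathway list with the smallest adjusted p, set receptors and ID genes, and the 3 most similar genes, besides 8 marker genes. Others, such as Gata3, Msx1 and Dlx2, were named after their values were seen. Same-numbered arrays of CAF and COF had correlations of deviations from group means of 0.13, 0.01 and -0.08. Those of CAF and CSC had -0.04 and 0.09, and those of CAF and TEC -0.02 and 0.09. With means of 2 or 3 arrays such values cannot decide whether the numbers pair the samples, and the model used no pairing. Alternatives are given in the closing section.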

Additional observations from a re-analysis of the deposited data

How the results depend on the processing

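Each difference of the 10 genes in 6 contrasts was computed again under 21 other settings or sets of arrays. Of 1248 such values, 1188 kept their direction and their side of the threshold, 31 lost and 20 gained a call, and 9 changed sign, none of the 9 in a difference that passed. Between CAF and COF the 6 calls held in each setting that tested the gene, and 6 to 8 genes passed when 1 array was left out. The ranges without 1 array were 1 to 3 for CSC minus TEC, 6 to 8 for CAF minus CSC, 7 to 9 for CAF minus TEC, 6 to 8 for CSC minus COF and 7 to 8 for TEC minus COF. Of all genes, 2980 to 5100, 4417 to 6039, 7059 to 8737, 7432 to 8506, 7588 to 9094 and 7747 to 8617 passed in these contrasts, in the same order. Only Inhbb passed between CSC and TEC with a replicate block, with a threshold of 0.01 and with the closest pairs of CAF and of COF arrays averaged, a count of 1 each, and the block moved no other count of calls by over 1.5 times. Averaging those pairs, chosen after seeing the data, left 1805 of 4309 genes between CAF and COF, and the threshold of 0.01 left 2638. In a fit of the CSC and TEC arrays alone 3013 genes passed. With all 22690 probe sets tested, 7427, 9963, 14547, 14935, 15223 and 15226 passed in the 6 contrasts, a count over more features. The signs that changed were all of uncalled values. Inhba for CSC minus COF was 0.061 with a replicate block and 0.50 without COF replicate 2, in a range of -0.58 to 0.50 without 1 array. Bmp7 for CSC minus TEC was 0.16 with the mean of all probe sets. Grem1 for CSC minus TEC was 0.072 with a second quantile normalization, 0.036 without TEC replicate 2 and 0.13 without CSC replicate 2 (range -0.14 to 0.13). Bmp4 for CSC minus TEC was 0.32 without TEC replicate 2 and 0.066 without CSC replicate 2 (range -0.58 to 0.32), and for CAF minus TEC it was -0.073 without TEC replicate 1 (range -0.07 to 0.83). Bmp6 and Grem1 were not tested when the dimmest 30% of genes were left out. The cause of these changes was not tested.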

Other observations

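The COF arrays were not alike, over all genes as well as for these 10. Over all genes the SD of the differences was 0.36 between COF replicates 1 and 2. It was 0.26 between replicates 2 and 3 and 0.18 between replicates 1 and 3. COF replicate 2 was the COF array nearest to the CAF mean for 8 of the 10 genes, against 53.0% of all 12394 genes. Of the 6 that passed between CAF and COF it was nearest for 5, a share near the 70.9% of the 4309 genes that passed. On that array Inhba stood at 9.46, against 7.30 and 8.30 on the other COF arrays, and Bmp4 at 8.29, against 9.11 and 8.97. The log2 of the summed level of the 14 epithelial markers was 10.83 there, against 10.13 and 10.39, and that of the 13 leukocyte markers 9.84, against 9.28 and 9.46. For the 6 adipocyte markers it was 14.33, against 14.26 and 14.27, but their median went the other way, at 6.81 against 7.71 and 7.52. Any part of these cell types in the values was not tested.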
